A study of Mus musculus with 8 samples.

Results

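The interferon-inducible GTPases are proteins that cells make in large amounts when they receive an interferon, and 9 mouse genes of 3 families were followed: the guanylate-binding proteins Gbp2 and Gbp3, the immunity-related GTPases Irgm1, Igtp, Iigp1, Ifi47 and Tgtp1, and the dynamin-like Mx1 and Mx2. The members were chosen by name, with earlier results of these data known. Every probe set annotated to exactly 1 of these symbols was read on both types of array. Of the 9 genes 8 had such a probe set, among 13674 genes with a probe set of 1 symbol in all. They were read by 9 probe sets, Iigp1 by 2 of them, and all 9 lay on the A chip. The B chip held 0. The probe set for Tgtp1 was annotated to 2 symbols, so no value is given for Tgtp1.

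The samples were 2 p63 null and 2 wild-type embryos, from which the whole skin was taken at E18.5, and each genotype has 2 arrays of either chip, A and B, of an Affymetrix set. p63, which Trp63 encodes, is the transcription factor that stratified epithelia such as epidermis depend on. All embryos came from crosses between p63 heterozygotes. The sources used here do not give the mutated allele, the strain or the sex of the embryos. The comparison is null against wild type within each chip, and it asks how the transcripts of skin differ when p63 is missing. In whole skin, fewer cells of a type and less RNA per cell cannot be told apart.

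Interferons bind receptors at the cell surface, and Jak kinases then phosphorylate Stat proteins. A complex that holds Stat2 and Irf9 binds the interferon-stimulated response element (ISRE), the gamma-activated site (GAS) serves the response to interferon gamma, and genes with such elements are transcribed. The GTPases are among these genes. Guanylate-binding proteins and immunity-related GTPases assemble on the vacuoles of intracellular bacteria and parasites in infected mouse cells. Mx proteins act against viruses. Most of these genes are transcribed little in cells that have received no interferon.

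The start regions of 4 members are shown, chosen among those with a match, because they hold letters that match the elements through which interferon signalling is known to act. Each is the RefSeq window of GRCm38.p6 from 250 bases before to 50 bases after the annotated start, read 5′ to 3′ on the gene's strand, with capitals marking every match to either motif. The ISRE core was searched as GAAA, any 2 bases, then GAAA, and the GAS as TTCNNNGAA, on both strands and with overlaps allowed. Gbp2 (chr3:142620413-142620712, plus strand) and Gbp3 (chr3:142559794-142560093, plus strand) belong to the guanylate-binding protein family. Irgm1 (chr11:48871371-48871670, minus strand) and Igtp (chr11:58199306-58199605, plus strand) belong to the immunity-related GTPases.
Gbp2: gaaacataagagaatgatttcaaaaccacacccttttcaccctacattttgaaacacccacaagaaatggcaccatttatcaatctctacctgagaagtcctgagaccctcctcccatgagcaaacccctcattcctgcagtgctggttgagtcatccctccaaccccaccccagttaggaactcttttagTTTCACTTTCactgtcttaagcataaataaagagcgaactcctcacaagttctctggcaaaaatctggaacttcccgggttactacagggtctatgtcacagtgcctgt
Gbp3: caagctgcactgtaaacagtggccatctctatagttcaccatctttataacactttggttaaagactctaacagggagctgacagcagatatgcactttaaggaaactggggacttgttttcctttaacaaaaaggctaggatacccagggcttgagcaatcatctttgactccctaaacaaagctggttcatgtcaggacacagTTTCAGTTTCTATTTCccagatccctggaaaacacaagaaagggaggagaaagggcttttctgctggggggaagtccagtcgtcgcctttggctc
Irgm1: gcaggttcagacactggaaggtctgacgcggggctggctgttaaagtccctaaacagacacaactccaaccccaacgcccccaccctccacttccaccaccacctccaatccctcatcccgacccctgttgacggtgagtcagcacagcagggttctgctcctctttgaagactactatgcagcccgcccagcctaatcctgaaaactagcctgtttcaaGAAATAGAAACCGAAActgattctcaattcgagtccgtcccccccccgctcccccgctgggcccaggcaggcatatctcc
Igtp: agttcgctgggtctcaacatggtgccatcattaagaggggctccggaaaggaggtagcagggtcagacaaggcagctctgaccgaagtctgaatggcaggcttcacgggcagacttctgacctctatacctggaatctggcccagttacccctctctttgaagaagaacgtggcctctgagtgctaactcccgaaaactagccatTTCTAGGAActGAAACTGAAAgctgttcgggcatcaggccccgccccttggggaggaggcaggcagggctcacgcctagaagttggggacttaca

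Of the members 6 had at least 1 window in the RefSeq table, and 5 of these 6 held the ISRE core, against 3.99% of the 27025 genes with a window. The exception was Ifi47, whose window held neither motif. The GAS was found in 2 of the 6, Igtp and Tgtp1, against 9.55% of all genes. Both of these also held the ISRE core, a combination found in 0.540% of all genes. Iigp1, Mx1 and Mx2 had no window. Counted over single windows, of which some genes have several, the ISRE core was in 3.44% and the GAS in 8.30% of 32851.

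The matches lay close to the start, counting the start base as 0. In Gbp2 the ISRE core lay on the opposite strand at -59 to -50. Gbp3 had 2 overlapping matches on the opposite strand at -45 to -36 and -39 to -30, all within 1 of its 2 windows. Irgm1 had 2 overlapping matches on its own strand at -30 to -21 and -24 to -15. In Igtp a GAS at -45 to -37 stood just ahead of an ISRE core at -34 to -25, and Tgtp1 repeated that order with a GAS at -88 to -80 and an ISRE core at -77 to -68. A match is a run of letters, not evidence of binding.

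**Figure D1:**
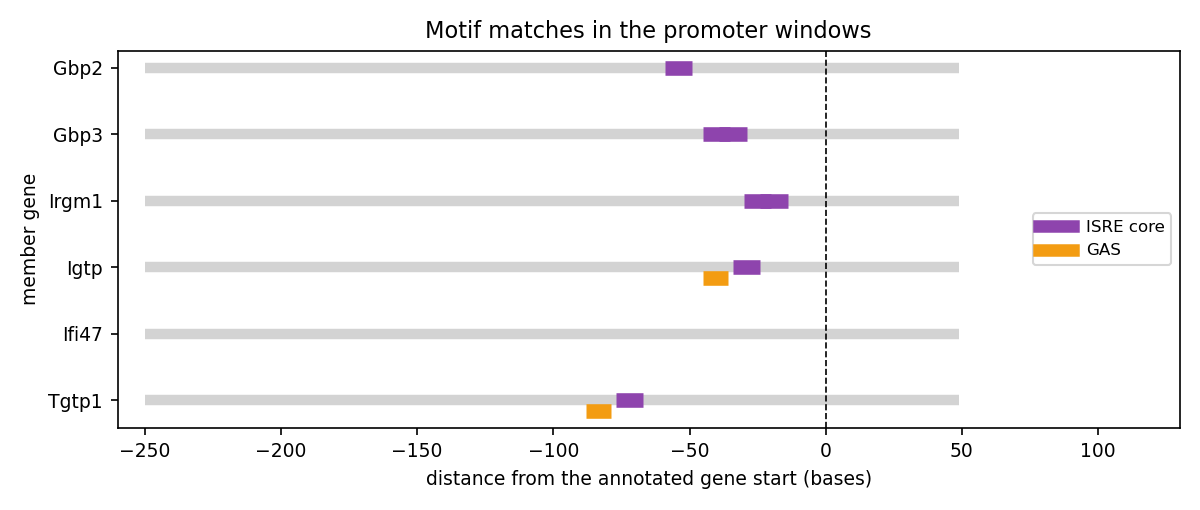
Positions of ISRE core matches (purple) and GAS matches (orange) in the promoter windows of the 6 members that have one, in bases from the annotated start, with 1 of the 2 windows of Gbp3 drawn. In the plot 5 rows carry a match between -88 and -15, and the row of Ifi47 is empty.

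The values are MAS5 signals, 1 intensity per probe set and array, and all A-chip arrays had a trimmed mean signal of 250.1 to 250.2. A log2 fold change is the null mean minus the wild-type mean of log2(signal + offset), with an offset of 12.9 for the A chip or 54.3 for the B chip, and it makes changes at low signal look smaller than they are. Probe sets were tested with limma when their mean log2 value passed the 40th percentile of the chip, equal to a signal of 54.0 on the A chip, and a call required an adjusted p under 0.05. Trp63 itself fell, with signals of 61.9 and 46.6 in null skin and 379.3 and 347.1 in wild-type skin (log2 fold change -2.49, SE 0.18, limma adjusted p = 1.13e-05). The ratio of 3' to 5' signal of beta-actin, which reflects RNA quality and labelling, was 1.27 on both null arrays of the A chip and 1.63 and 1.69 on the wild-type arrays. The same ratio of Gapdh was 1.25 and 1.45 in null and 1.47 and 2.46 in wild type on the A chip, and 1.26 and 1.51 in null and 1.55 and 2.66 in wild type on the B chip, so by Gapdh wild-type array 2 stood apart. By the control probe set AFFX-CreX-3_at null array 2 did. It read 6419.5 there and at most 3836.8 on the other A-chip arrays, and 32512.0 against at most 18942.4 on the B chip. Calls lost without wild-type array 2 are given beside each result. The part of these ratios and control signals in the results was not tested. On each chip the 2 arrays of a genotype are read as 2 embryos, a number that limits the precision of every comparison.

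Every tested member was higher in p63 null skin. Of the 9 member probe sets 7 were tested, and all 7, from 6 genes, rose in the null at an adjusted p of 0.000346 or less (limma), while 0 fell. Among all tested probe sets of the A chip 22.1% rose. The level required for testing matters here, since 4 of the 7 passed it only through their null arrays, their wild-type mean lying below it, and a member of that kind had to differ. With every probe set tested and no such level, 9 of 9 rose, against 11.9% of all 12422. Both null arrays also lay above both wild-type arrays for 9 of 9 member probe sets, against 35.2% of all. The median log2 fold change of the 9 was 1.85, against 0.06 over all 12422 probe sets. Among the rises of all 12422 the members ranked from 39 (Gbp3) to 391 (Mx2).

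**Figure D2:**
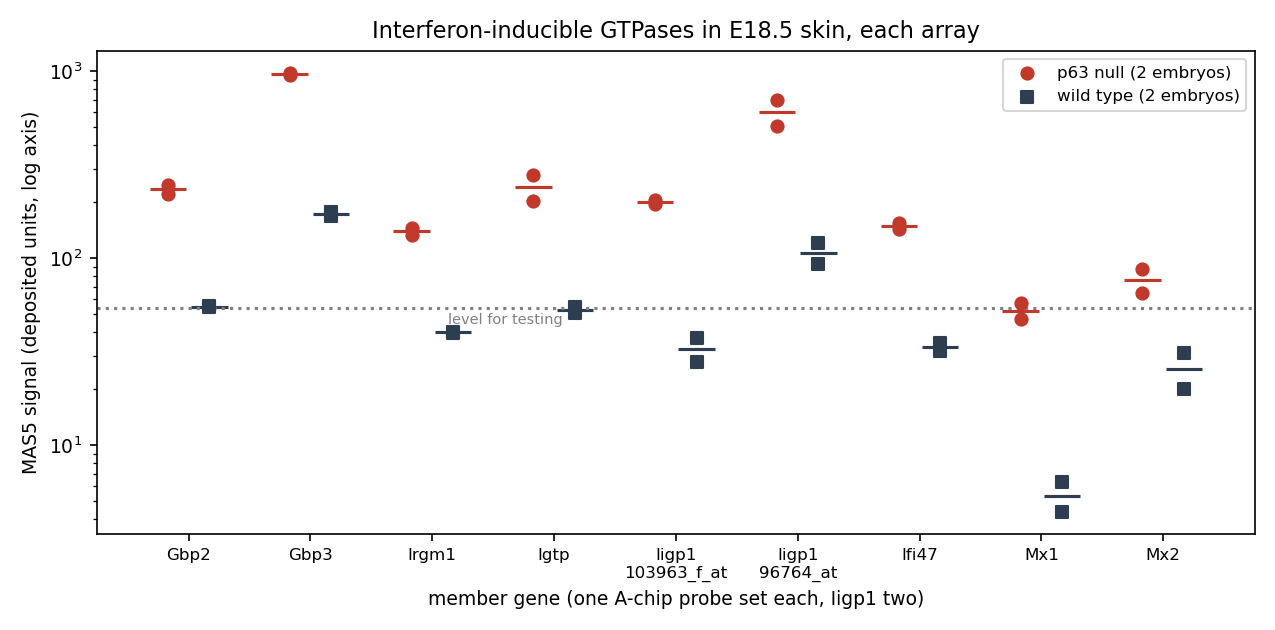
Deposited MAS5 signal (log axis) of each member probe set on every A-chip array, with p63 null embryos as circles left of wild-type embryos as squares and group means as short lines. The circles stand above the squares for all 9 probe sets, and the dotted line marks the signal of 54.0 that corresponds to the level for testing.

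Gbp3 had the highest log2 fold change among the tested members at the offset used, although the ratio of mean signals was larger for both Iigp1 probe sets, at 6.10 and 5.67. It encodes a guanylate-binding protein, a large GTPase that gathers on the membranes of vacuoles that hold microbes. Its signals were 949.5 and 979.2 in null skin and 175.8 and 168.6 in wild-type skin. The 2 arrays of a genotype nearly coincided and the genotypes lay far apart, with means of 964 ± 21.0 in null and 172 ± 5.09 in wild type (SD, n = 2 each), a ratio of 5.60. The log2 fold change was 2.40 (SE 0.13, 95% interval 2.12 to 2.68, limma adjusted p = 1.15e-06), which ranked 34 among the rises of the 7453 tested probe sets. Wild-type skin was above the level for testing, so this call did not depend on the null arrays for its place in the test.

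Gbp2, another guanylate-binding protein, is encoded on chromosome 3 like Gbp3. Its signals were 244.8 and 220.1 in null skin and 55.4 and 54.5 in wild-type skin. Both wild-type arrays sat just above the level for testing, and neither null array came near them. Means were 232 ± 17.5 in null and 55.0 ± 0.636 in wild type (SD, n = 2 each), and the log2 fold change was 1.85 (SE 0.18, 95% interval 1.45 to 2.25, limma adjusted p = 5.61e-05).

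Among the immunity-related GTPases, Iigp1 rose most. It encodes an effector that mouse cells load onto the vacuole of Toxoplasma, where it damages the membrane. Its probe set without a family suffix gave 509.6 and 699.6 in null skin and 93.4 and 119.9 in wild-type skin. These groups did not overlap, although the null arrays differed from each other more than those of Gbp3 did (605 ± 134 in null and 107 ± 18.7 in wild type, SD, n = 2 each). Its log2 fold change was 2.36 (SE 0.19, 95% interval 1.93 to 2.79, limma adjusted p = 1.83e-05).

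The other Iigp1 probe set carries the suffix (_f_at) that the array's maker gives to sets whose probes can bind several members of a gene family, so related copies may add to it. It gave 194.2 and 204.7 in null skin and 27.9 and 37.5 in wild-type skin, where it was below the level for testing. The log2 fold change was 2.23 (SE 0.21, 95% interval 1.76 to 2.69, limma adjusted p = 4.17e-05), and the interval overlapped that of the first probe set. With the offset at the 40th percentile it was 1.57, still called.

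Igtp, also known as Irgm3, is one of the regulatory members of the family, which hold the effectors inactive on the cell's own membranes. Its signals were 277.2 and 202.9 in null skin and 54.8 and 50.7 in wild-type skin. The null arrays were the more variable pair but both exceeded the wild-type arrays, with means of 240.1 ± 52.5 in null and 52.8 ± 2.90 in wild type (SD, n = 2 each). The log2 fold change was 1.93 (SE 0.20, 95% interval 1.47 to 2.39, limma adjusted p = 9.38e-05).

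Irgm1, another regulator of this family and a gene that mice need to resist mycobacteria, had the smallest rise among the tested members. Its signals were 132.6 and 145.4 in null skin and 39.7 and 40.4 in wild-type skin, so the wild-type arrays lay close together at a low level. The log2 fold change was 1.52 (SE 0.20, 95% interval 1.07 to 1.97, limma adjusted p = 0.000346). Its 95% interval lay wholly below that of Gbp3, a comparison of fold changes that was not itself tested.

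Ifi47, an effector-type relative, had no motif match in its window and rose all the same. Its signals were 142.2 and 153.5 in null skin and 32.0 and 35.2 in wild-type skin, without overlap. Means were 148 ± 7.99 in null and 33.6 ± 2.26 in wild type (SD, n = 2 each). The log2 fold change was 1.79 (SE 0.20, 95% interval 1.33 to 2.25, limma adjusted p = 0.000149), within the range of the members that carry the ISRE core.

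Both Mx genes were below the level for testing, their mean log2 values over the 4 arrays being too low. Mx1 and Mx2 encode antiviral GTPases, but RefSeq classes both genes as transcribed pseudogenes in the mouse reference genome. Mx1 gave 57.3 and 47.4 in null skin and 4.4 and 6.3 in wild-type skin. Without detection calls it cannot be said whether the wild-type values differ from background. In the fit with no level for testing its log2 fold change was 1.84 (SE 0.22, limma adjusted p = 0.00285), a value that the offset lowers. Mx2 gave 65.3 and 87.0 in null skin and 31.2 and 20 in wild-type skin. Its log2 fold change in that fit was 1.21 (SE 0.28, limma adjusted p = 0.0250), the smallest of the 9, although its groups did not overlap either.

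Beyond the 9 members, most tested GTPases of the same families rose. The list of further interferon-inducible GTPases, which like the lists that follow was chosen with earlier results of these data known, had 2 tested genes on the A chip, and both rose, against 22.4% of the tested genes of that chip. Of its 3 tested genes on the B chip 2 rose, against 16.1% of the genes of that chip. Irgm2, a regulatory immunity-related GTPase, gave 574.9 and 463.6 in null skin and 123.0 and 98.0 in wild-type skin (log2 fold change 2.11, SE 0.17, limma adjusted p = 2.07e-05). The guanylate-binding protein Gbp7 gave 743.0 and 731.3 in null skin and 221.2 and 224.4 in wild-type skin on the A chip (log2 fold change 1.67, SE 0.12, limma adjusted p = 1.27e-05). Its B-chip probe set read 256.6 and 336.4 in null skin and 185.8 and 165.6 in wild-type skin and was not called (log2 fold change 0.60, SE 0.23, limma adjusted p = 0.0919), so the 2 probe sets of Gbp7 disagreed in size.

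Gbp6 and Gbp9, of the same family, are the called genes of the B chip. Gbp6 gave 639.6 and 636.1 in null skin and 188.4 and 151.6 in wild-type skin (log2 fold change 1.63, SE 0.19, limma adjusted p = 0.00112). Gbp9 gave 776.1 and 517.4 in null skin and 309.3 and 251.3 in wild-type skin, with a log2 fold change of 1.05 (SE 0.23, limma adjusted p = 0.0143). This call was lost without wild-type embryo 2, where the log2 fold change was 0.92 (adjusted p = 0.0733). Gbp2b and Gbp8 were below the level for testing, and their null arrays, at 135.8 and 99.9 for Gbp2b, lay above their wild-type arrays, at 5.5 and 11.3. All 6 genes of this list with a promoter window held the ISRE core, and 5 of the 6 also held the GAS.

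Constitutive relatives are proteins of the dynamin superfamily, not all of them GTPases, and immunity-related homologues that do not depend on interferon. In the probe sets counted their fold changes were smaller than those of the tested members, though B-chip values carry a larger offset. On the A chip 2 of 5 tested relatives rose and 0 fell, against 22.4% and 22.8% of all tested genes. Their median log2 fold change was 0.32, against 0.01 over all genes. Among the relatives on the B chip 4 of 8 rose and 0 fell, against 16.1% and 16.0% of all tested genes. Their median there was 0.46, against 0.04 over all genes. At an unadjusted p under 0.05 the count of falls was likewise 0 on both chips. Their log2 fold changes ran up to 0.85 on the A chip (Ehd1) and 0.96 on the B chip (Ehd4), both proteins of endocytic membrane traffic, counting 1 probe set per gene. Other probe sets of the same genes differed. Another tested probe set of Ehd2 gave 2392.0 and 2340.5 in null skin and 1140.7 and 686.9 in wild-type skin, a rise of 1.36 (limma adjusted p = 0.00415), against 0.56 for the one counted. Opa1, which fuses inner mitochondrial membranes, rose by 0.85 on 1 probe set, while another read 514.5 and 360.7 in null skin and 463.9 and 500.4 in wild-type skin (log2 fold change -0.14, adjusted p = 0.632). Below the level for testing, Ehd3 read 224.6 and 213.5 in null skin and 75.9 and 59.0 in wild-type skin, and the B-chip probe set of Mfn1 read 91.1 and 67.1 in null skin and 242.6 and 280.1 in wild-type skin. Of the probe sets counted, Dnm1 (log2 fold change 0.45) was lost without wild-type embryo 2 (adjusted p = 0.107), while another Dnm1 probe set rose by 0.68. Ehd2 was lost without wild-type embryo 1 (0.139) or 2 (0.0597), and Mfn2 (0.53) likewise (0.165 and 0.0848). Of the 14 relatives with a promoter window 0 held either motif.

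**Figure D3:**
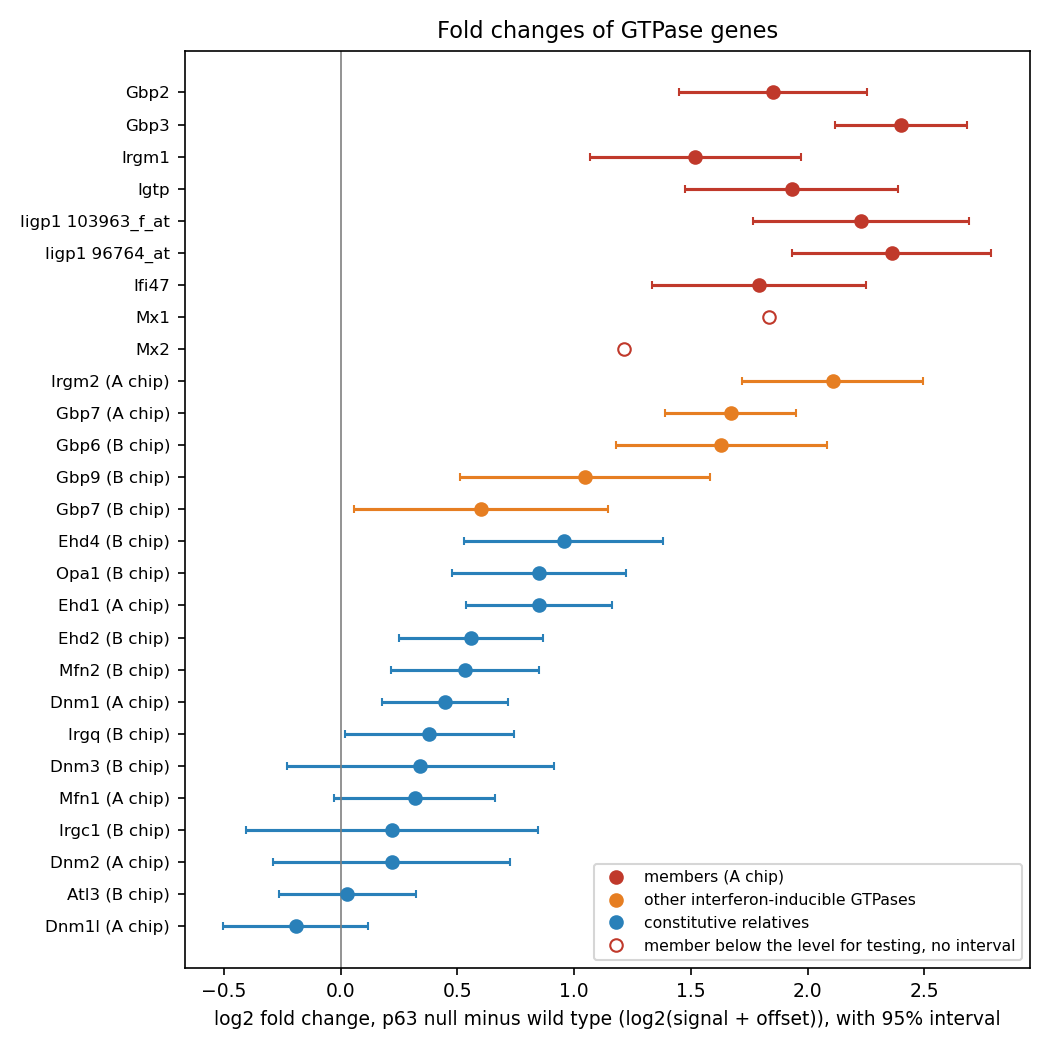
Log2 fold changes, p63 null minus wild type, with 95% intervals for the members (red), the further interferon-inducible GTPases (orange) and the constitutive relatives (blue), with open circles for Mx1 and Mx2, which were below the level for testing. The tested members lie between 1.52 and 2.40, and the relatives, each drawn with its tested probe set of highest mean signal, reach at most 0.96.

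The interferon pathway was then read by role, beginning with its ligands. Of 16 ligand genes 12 were on the A chip and 4 of these were tested. Of the 4 tested 1 rose and 1 fell, against 22.4% and 22.8% of all tested genes of that chip. The riser was Ifna5, a type I interferon, with signals of 141.8 and 119.5 in null skin and 88.8 and 63.9 in wild-type skin (log2 fold change 0.70, SE 0.21, limma adjusted p = 0.0257). Its probe set is of the kind that can bind several genes of the interferon alpha family, and the call was lost without null embryo 1 (adjusted p = 0.101), without wild-type embryo 2 (0.168) and with no level for testing (0.0722). Il18, a cytokine stored in keratinocytes that prompts lymphocytes to make interferon gamma, fell to 34.4 and 83.8 in null skin, against 664.9 and 645.1 in wild-type skin (log2 fold change -3.30, SE 0.28, limma adjusted p = 2.76e-05). Interferon gamma and interferon beta, named after their values were seen, were below the level for testing. Ifng gave 1.3 and 1.1 in null skin and 3.7 and 0.5 in wild-type skin, and Ifnb1 gave 3.5 and 8.4 in null skin and 13.4 and 12.4 in wild-type skin. Such low signals, without detection calls, give no direction. The tested Ifnab read 58.0 and 85.9 in null skin and 43.0 and 44.8 in wild-type skin (log2 fold change 0.56, limma adjusted p = 0.0921). Ifna9, also tested, was at -0.05 and overlapped. At an unadjusted p under 0.05, 2 ligands were higher and 1 lower. The B chip held 0 genes of this list.

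Of the receptor genes 1 of 5 tested on the A chip rose, near the 22.4% of all tested genes there, and 0 fell. The riser was Il10rb, a subunit shared by the receptors of interleukin 10 and of interferon lambda, at 907.4 and 786.0 in null skin and 469.4 and 470.0 in wild-type skin (log2 fold change 0.83, SE 0.12, limma adjusted p = 0.000732). The subunits of the type I receptor had log2 fold changes of 0.24 (Ifnar1, adjusted p = 0.207) and 0.37 (Ifnar2, adjusted p = 0.116). Of the interferon gamma receptor, Ifngr1 had 0.31 (adjusted p = 0.174). Ifngr2 had -0.15 on the A chip (adjusted p = 0.687) and 0.33 on the B chip (adjusted p = 0.0578). On the A chip Ifngr2 depended on single arrays, at -0.61 without null embryo 1 (adjusted p = 0.0345) and 0.31 without null embryo 2. The B chip tested no other receptor gene and so had 0 called by limma, with 1 at an unadjusted p under 0.05. Without null embryo 1 that gene, Ifngr2, had an adjusted p of 0.0416.

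Signalling genes and Irf transcription factors come next. On the A chip 7 of 10 tested rose and 0 fell, against 22.4% and 22.8% of all tested genes, and their median was 0.66, against 0.01. At an unadjusted p under 0.05, 0 receptor and 0 signalling genes were lower. Irf7, which amplifies the production of type I interferon and is itself induced by it, gave 318.4 and 375.3 in null skin and 36.0 and 45.3 in wild-type skin (log2 fold change 2.75, SE 0.19, limma adjusted p = 7.25e-06). With a wild-type mean of 40.65, this probe set passed the level for testing only through its null arrays. Another Irf7 probe set, of the family type, read 156.6 and 167.9 in null skin and 63 and 56.6 in wild-type skin and rose by 1.27 (adjusted p = 0.000642). Irf9, the DNA-binding part of the complex at the ISRE, gave 788.1 and 648.8 in null skin and 294.7 and 284.5 in wild-type skin (log2 fold change 1.27, SE 0.14, limma adjusted p = 0.000117). Irf1, a factor that interferon gamma induces and that in turn drives Gbp genes, gave 266.1 and 246.3 in null skin and 120.9 and 107.6 in wild-type skin (log2 fold change 1.08, SE 0.16, limma adjusted p = 0.000691). Irf8, a factor of myeloid cells, rose by 1.12 and Stat3 by 0.61. Irf5 (0.72) and Jak1 (0.40) also rose, but Irf5 was not called without null embryo 2 (adjusted p = 0.0599) or wild-type embryo 2 (0.0687), nor Jak1 without wild-type embryo 1 (0.0631) or 2 (0.129). The B chip tested 2 of these genes and 1 rose, Stat2, at 1097.7 and 741.7 in null skin and 342.2 and 395.3 in wild-type skin (log2 fold change 1.18, SE 0.21, limma adjusted p = 0.00651). Another Stat2 probe set of that chip read 237.4 and 1273.0 in null skin and 317.8 and 35.5 in wild-type skin, where the genotypes overlapped.

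Of the inhibitors of the pathway 3 of 9 tested on the A chip rose and 1 fell, with a median of -0.02, counts that in so short a list lie near the 22.4% and 22.8% of all tested genes. Usp18, which an interferon response induces and which then blocks the type I receptor, gave 246.7 and 249.2 in null skin and 39.7 and 22.7 in wild-type skin (log2 fold change 2.59, SE 0.23, limma adjusted p = 3.27e-05). Its wild-type mean was 31.2, so it passed the level for testing only through its null arrays. Socs1, which inhibits the Jak kinases, rose by 1.07 (SE 0.21, adjusted p = 0.00325). For its relative Socs3 the rise was 0.70 (adjusted p = 0.0131), which did not hold without null embryo 1 (0.0563) or wild-type embryo 2 (0.0656). The phosphatase Ptpn2 fell by 0.64 on the log2 scale (adjusted p = 0.0159), a call lost without null embryo 2 (0.0560), wild-type embryo 1 (0.0591) or wild-type embryo 2 (0.0734). Another A-chip probe set of Socs3 read 121.7 and 112.3 in null skin and 52.6 and 46.1 in wild-type skin and rose by 1.06 (adjusted p = 0.00272), and its B-chip probe set, below the level for testing, overlapped between genotypes. By limma 0 of 5 inhibitors were called on the B chip, and 1 was lower at an unadjusted p under 0.05. A probe set of Pias4 not counted there, at 363.6 and 553.0 in null skin and 238.0 and 93.7 in wild-type skin, was called (log2 fold change 1.28, adjusted p = 0.0332), whereas the counted one was at 0.08.

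The other interferon targets that were tested rose nearly throughout. On the A chip 25 of 26 tested rose and 0 fell, against 22.4% and 22.8% of all tested genes, with a median log2 fold change of 1.27. All 12 of 12 rose on the B chip, against 16.1% of all tested genes there, with a median of 1.14. The count of falls was also 0 at an unadjusted p under 0.05 on both. Ifit1, which binds viral RNA, gave 335.1 and 385.5 in null skin and 24.7 and 22.3 in wild-type skin (log2 fold change 3.36, SE 0.19, limma adjusted p = 1.83e-06). Isg15, a ubiquitin-like modifier, gave 922.0 and 898.0 in null skin and 247.8 and 200.1 in wild-type skin (log2 fold change 1.97, SE 0.14, limma adjusted p = 8.98e-06). Ifit3 rose by 2.32 and the RNA sensor Ifih1 by 1.62. With wild-type means of 23.5 and 32.15, Ifit1 and Ifit3 passed the level for testing only through their null arrays and so had to differ. Some other counted targets of both chips were of that kind. With no level for testing 27 of 34 A-chip targets rose and 0 fell, where 11.9% of all 12422 probe sets rose. On the B chip Oasl2, of the oligoadenylate synthetase family, gave 3581.4 and 3505.8 in null skin and 338.8 and 343.1 in wild-type skin (log2 fold change 3.19, SE 0.13, limma adjusted p = 6.39e-06). Bst2, a tether of budding viruses, rose by 2.23 and the RNA sensor encoded by Ddx58 by 1.85. Oasl1 gave 1461.0 and 1259.8 in null skin and 350.7 and 67.4 in wild-type skin, so its wild-type arrays differed widely. It rose by 2.67, a value that was 3.54 without wild-type embryo 1 and 1.80 without wild-type embryo 2.

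**Figure D4:**
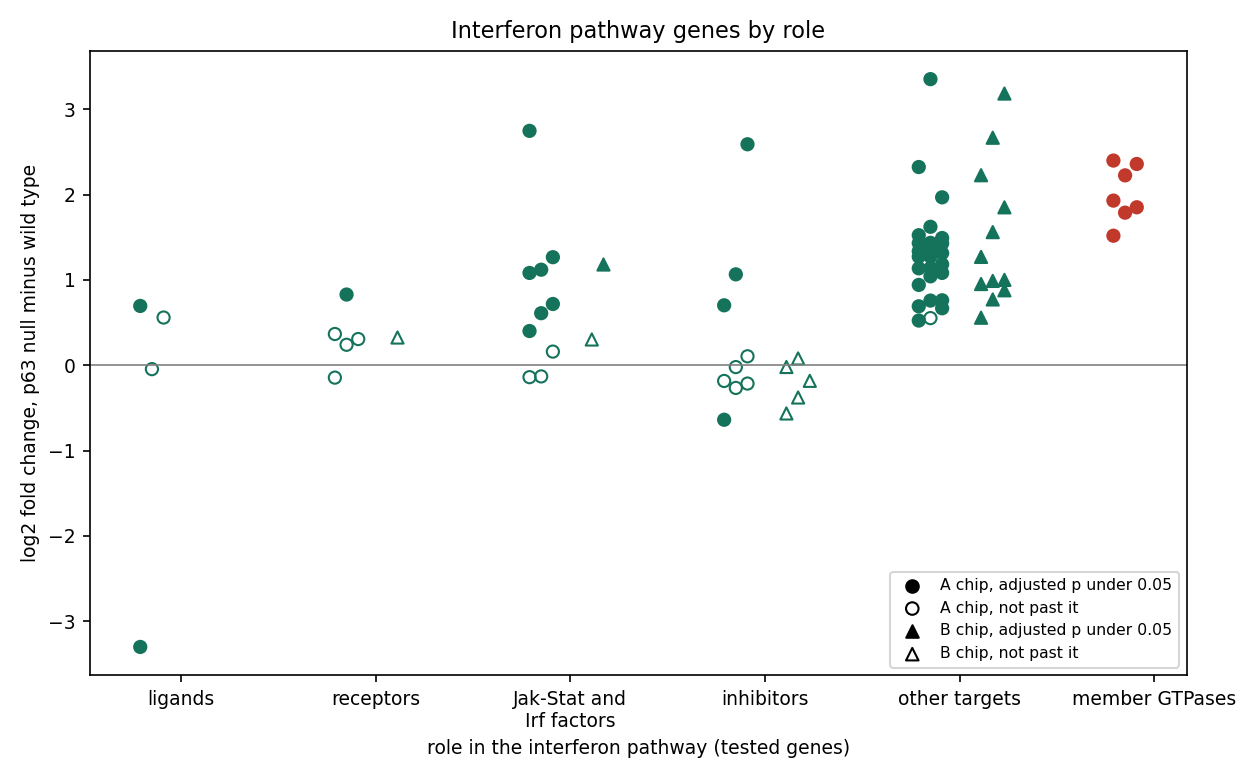
Log2 fold changes, p63 null minus wild type, of the tested genes of the interferon pathway grouped by role (A chip circles, B chip triangles, filled where the adjusted p was under 0.05), with the tested member probe sets at the right in red. Targets and members lie above 0, whereas receptors lie between -0.15 and 0.83 and ligands spread from -3.30 to 0.70.

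The same motifs were counted in every tested gene as background. Of the 4666 tested A-chip genes with a promoter window 1001 (21.5%) rose and 1068 (22.9%) fell. Of the 166 that held the ISRE core 45 (27.1%) rose and 34 (20.5%) fell, with a median log2 fold change of 0.06. On the B chip 29 of 141 genes with the ISRE core (20.6%) rose and 16 (11.3%) fell, against 15.5% and 15.7% of all 4299 with a window. These shares are descriptions of the windows and include the members and lists above.

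Cell type markers were read beside these results, as sums of the signals of each list on the A chip. Macrophage and monocyte markers summed to 9922.5 and 10607.1 in null skin and 3907.6 and 3642.3 in wild-type skin. Of their 11 tested genes 10 rose, against 22.4% of all tested genes of the A chip. Among the 10 were C1qa (2.09), Ctss (1.98), C1qc (1.64) and Lyz2 (1.59), which encode complement proteins, a lysosomal protease and lysozyme of these cells. Macrophages express the GTPases readily, and the part of these cells in the members' rise was not tested. Itgam was among their low markers, at 39.9 and 7.9 in null skin and 4.9 and 4.6 in wild-type skin.

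Lymphoid markers gave no call. T and NK cell markers summed to 1293.4 and 1304.6 in null skin and 1302.9 and 1381.0 in wild-type skin, of which Thy1 made up most. Both of the tested genes were uncalled by limma, and 0 of them passed at an unadjusted p under 0.05. Markers that define these cells were low on every array, Cd3d at 10.7 or less and Ncr1 at 13.1 or less. Dendritic cell markers summed to 662.7 and 683.4 in null skin and 780.9 and 708.0 in wild-type skin, with 0 of 4 tested genes called on the A chip by limma and 0 at an unadjusted p under 0.05. Without null embryo 2, however, 1 was called. Below the level for testing, H2-Aa read 13.3 and 43.7 in null skin and 70.4 and 88.5 in wild-type skin. H2-Ab1 read 19.3 and 43.6 in null skin and 90.6 and 74.2 in wild-type skin. Both were thus lower in null skin. The tested genes, none of them called, went both ways, with log2 fold changes of 0.37 (Flt3), 0.30 (Xcr1), -0.01 (Itgax) and -0.22 (Cd74). The B chip tested 1 gene of the dendritic cell list, Bst2, which is also an interferon target and rose.

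Neutrophil markers summed to 1003.6 and 990.9 in null skin and 669.0 and 659.7 in wild-type skin. Of the 3 tested 1 rose, Csf3r, by 0.48, and the call was lost without null embryo 2, wild-type embryo 1 or wild-type embryo 2. The tested granule gene Camp read 327.7 and 303.1 in null skin and 326.5 and 372.2 in wild-type skin (log2 fold change -0.14). Elane, also tested, was at 0.31, and the genotypes overlapped for both. The granule genes Mpo, Ltf, Mmp8 and Ngp were below the level for testing. Mpo read 30.7 and 27.3 in null skin and 24.8 and 32.9 in wild-type skin. Cxcr2 and Itgb2l, also below it, were low on every array and higher in null skin. Ltf read 85.9 and 71.0 in null skin and 7.7 and 6.7 in wild-type skin, Mmp8 103.7 and 113.7 in null skin and 9.9 and 5.4 in wild-type skin, and Ngp 101.9 and 91.3 in null skin and 13.8 and 11.7 in wild-type skin. With no level for testing 3 neutrophil markers were called, and the part of these cells in the members' rise was not tested. Endothelial markers summed to 4860.0 and 5476.8 in null skin and 2789.7 and 2921.2 in wild-type skin. Of these 7 of 9 rose, with 2 of 3 on the B chip, against 22.4% (A chip) and 16.1% (B chip) of all tested genes. Fibroblast markers summed to 41718.0 and 48969.2 in null skin and 37143.4 and 34464.0 in wild-type skin, and 5 of 9 rose, against the same 22.4%. That fibroblast count was 8 without null embryo 1, 2 without wild-type embryo 1 and 1 without wild-type embryo 2.

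Skeletal muscle markers, from tissue under the skin, summed to 20990.9 and 24118.7 in null skin and 10999.4 and 10433.7 in wild-type skin. Of these 10 of 10 rose, against 22.4% of all tested genes of the A chip. Keratinocyte markers summed to 3513.8 and 3950.3 in null skin and 31372.0 and 30337.1 in wild-type skin. Of those tested 8 of 8 fell, as did 2 of 2 on the B chip, against 22.8% (A chip) and 16.0% (B chip) of all tested genes. Wild-type skin thus held its epidermal transcripts, although the A-chip probe sets of the basal keratins Krt5, Krt14 and Krt15 read 15.9 or less on all arrays. The B-chip probe set of Krt15 read 842.1 and 784.0 in null skin and 10543.6 and 12121.1 in wild-type skin. The arrays were scaled to a common mean signal, and the part of the keratinocyte fall in the members' rise was not tested.

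**Figure D5:**
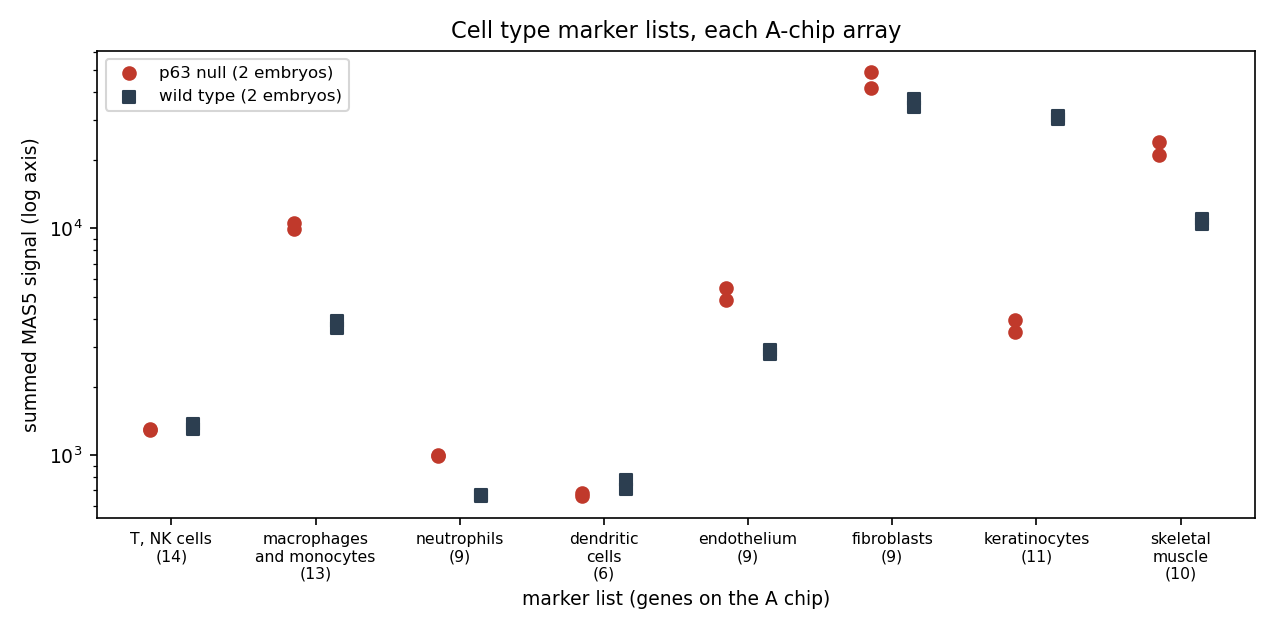
Summed MAS5 signal (log axis) of each marker list on every A-chip array, p63 null as circles left of wild type as squares, with the number of listed genes on the chip under each name. Macrophage sums reach 10607.1 in null skin against 3907.6 at most in wild-type skin, keratinocyte sums lie far lower in null skin, and T and NK sums nearly coincide.

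The probe sets whose pattern over the 4 A-chip arrays came nearest to that of Gbp3, the member with the highest mean signal, were ranked by Euclidean distance between centred log2 values among 6750 tested probe sets of other genes. The 5 nearest were Alb (0.0944), Serping1 (0.148), Ccl2 (0.151), Ifit3 (0.172) and Ucp1 (0.197). They encode albumin, the inhibitor of complement C1, a chemokine that draws monocytes, an interferon-induced protein and the uncoupling protein of brown fat. Alb gave 268.8 and 285.0 in null skin and 47.5 and 41.9 in wild-type skin, and Ccl2 gave 721.0 and 821.8 in null skin and 137.6 and 146.0 in wild-type skin. Of the 5, then, 1 is on the list of interferon targets. The members themselves lay farther from Gbp3, from 0.309 for the family-type probe set of Iigp1 to 1.23 for Mx2. With 4 arrays the distance mostly reflects the size of the rise, and it carries no test.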

How the data were processed

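RNA of whole E18.5 skin was measured on single-colour Affymetrix A and B chips. The deposited values are linear intensities, 1 per probe set and array, and per the submitters' processing notes the authors used MAS5 to make them. Its version, detection calls and genome build were not given in the sources used here. The A chip held 12488 probe sets (10855 with 1 symbol in the platform annotation, 396 with several, 1237 with none) and the B chip 12477 (10603, 178 and 1696). By gene identifier 10839 and 10572 were found in the RefSeq gene table.

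Groups were taken from the sample titles. Each array was rescaled to a common 2% trimmed mean, the 20th percentile of the chip's signals was added as an offset, and log2 was taken. Control probe sets, 66 per chip, were excluded. Probe sets whose mean log2 value was above the 40th percentile were tested, 7453 of the A chip and 7446 of the B chip. Null was compared with wild type by limma 3.58.1 (lmFit, eBayes with a variance trend, two-sided) in R 4.3.3, with Benjamini-Hochberg adjustment over all tested probe sets of a chip and a threshold of 0.05. The B chip holds no member probe set, so the planned member test there has no value. The main fits use all 4 arrays of a chip and impute none. Means are given ± SD of the deposited signals.

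Genes of a list were represented by their tested probe set with the highest mean signal. The members and lists were chosen with earlier results of these data known, and the list counts are descriptions. The genes named are the members, Trp63, tested ligands, receptors, signalling genes and inhibitors, and from each other list up to 4 called genes with the largest rises and falls. The 5 probe sets nearest to Gbp3 were also named. Promoter windows are RefSeq's, and coordinates of GRCm38.p6 come from them alone. Of the list symbols, Gbp1 was read as Gbp2b, a synonym, and Gvin2, Gvin3, Iigp1b and Ifi47b were not matched. Alternatives changed the offset, the level for testing, the scaling, the variance model, the block and the arrays included.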

Additional observations from a re-analysis of the deposited data

How the results depend on the processing

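The 7 tested member probe sets kept their direction and their call in all 79 refits under 12 alternatives, with log2 fold changes from 1.05 to 2.58 and adjusted p-values of 0.00410 or less. Leaving out 1 embryo at a time kept 7 called, with the remaining embryo assumed to vary like the others. With the level for testing at the 60th percentile 2 member probe sets were tested and both were called, and with no such level 9 of 9. Over all tested probe sets the same-numbered embryos deviated together with a correlation of 0.0389 (A chip) or -0.0465 (B chip). The labels do not say whether they were paired, and a correlation over all probe sets cannot decide it. A fit with the number as a replicate block called 3368 probe sets of the A chip, 2411 of the B chip and 7 member probe sets, and 1 inhibitor of the B chip in place of 0. Without 1 embryo the calls over all probe sets ran from 2197 to 3303 on the A chip (3299 with all, 2197 without wild-type embryo 2) and from 1103 to 2477 on the B chip (2189 with all, 1139 without wild-type embryo 1, 1103 without wild-type embryo 2). List counts without 1 embryo ran from 1 to 2 for ligands (2 with all), 1 to 2 for A-chip receptors (1 with all) and 0 to 1 for B-chip receptors (0 with all). They ran from 2 to 3 for inhibitors on the A chip (4 with all), 1 to 2 for the further GTPases on the B chip (2 with all), and for the constitutive relatives 1 to 2 on the A chip (2 with all) and 2 to 4 on the B chip (4 with all). At the 60th percentile fewer genes were tested, and the counts were 1 ligand, 4 signalling genes (7 in the main setting) and 1 inhibitor on the A chip, and 1 receptor and 1 further GTPase on the B chip. With no level for testing 1 ligand was called. Quantile normalization called 1 receptor on the B chip. The A-chip log2 fold change of Ifngr2, which was not called, ran from -0.61 to 0.31 when 1 embryo was left out. Of the list genes named, 42 were refitted, and 469 of 494 refits kept direction and call. Beyond the embryos named in the results above, the call of Mfn2 (adjusted p = 0.0513) and of Jak1 (0.0513) was lost without the variance trend. An offset at the 40th percentile lowered the log2 fold changes of Irf7 (2.10), Usp18 (1.85), Ifit1 (2.44) and Ifit3 (1.65), and that of Il18 was -2.70, with every call kept. The fibroblast count was 3 with median centring, with no variance trend, with the replicate block and with no level for testing, and 3 neutrophil markers were called with no level for testing. Apart from the smaller number of genes tested at the 60th percentile, the causes of these changes were not tested. Low signals without detection calls limit what can be said of Mx1, Mx2, Ifng and Ifnb1.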
